A study of Mus musculus with 8 samples.

Results

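The metallothioneins *Mt1*, *Mt2* and *Mt3* were examined in mouse cerebellum together with *Mtf1*, which encodes the metal-sensing transcription factor MTF1, and *Slc30a1*, which encodes the zinc exporter ZnT1. These 5 genes were taken by name from the 56691 genes of the count table, by matching Ensembl identifiers without their version to the GENCODE annotation, without a rule on their values. All 5 were found and all 5 passed the filter on low counts. Bulk RNA sequencing had been performed on frozen cerebellum of 4 *Atm*-WT and 4 *Atm*-KO mice, with a library for each mouse, to follow what the loss of the ATM kinase does to cerebellar gene expression. ATM is the DNA damage kinase that is lost in ataxia-telangiectasia. The mutant line carried the *Atm* tm1Bal allele on a mixed B6 and 129S4 background, was bred from heterozygous parents with wild-type littermates as controls, and was 6 months of age. The allele is present in every cell of the mouse, and the labels give no treatment. In the labels the *Atm*-WT libraries (ATM +/+) are 2M, 7M, 13M and 32M, and the *Atm*-KO libraries (ATM -/-) are 1M, 7F, 11M and 12M.

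Metallothioneins are small cysteine-rich proteins that bind zinc and copper. *Mt1* and *Mt2* are induced by zinc, glucocorticoids and oxidative or inflammatory stress and are expressed in brain mainly by astrocytes, whereas *Mt3* is enriched in the nervous system. When cytosolic zinc rises, MTF1 binds metal response elements and activates *Mt1*, *Mt2* and *Slc30a1*, so that surplus zinc is bound by metallothioneins or exported across the plasma membrane by ZnT1.

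The 3 expressed metallothioneins lie on chromosome 8 (GRCm39), all on the plus strand, in a cluster that also holds *Mt4*. In order along the chromosome, *Mt4* spans bases 94863825 to 94865661, *Mt3* spans 94879220 to 94881088, *Mt2* spans 94898819 to 94900207 and *Mt1* spans 94905710 to 94906955. Only 5502 bases separate *Mt2* from *Mt1*, against 17730 bases between *Mt3* and *Mt2*. *Mtf1* lies on chromosome 4 (124695897 to 124743593) and *Slc30a1* on chromosome 1 (191638808 to 191645361), both on the plus strand. None of the 5 is on chromosome 9, which carries *Atm*.

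The promoters of *Mt1* and *Mt2* are shown because these genes had the lowest *Atm*-KO levels relative to *Atm*-WT and because both hold copies of the core of the metal response element. Each window runs from 250 bases before to 50 bases after the start of the Ensembl canonical transcript, read 5′ to 3′ on the plus strand of GRCm39. Capitals mark the cores searched, TGCACNC and TGCGCNC, on either strand.
Mt1 promoter (chr8:94905460-94905759): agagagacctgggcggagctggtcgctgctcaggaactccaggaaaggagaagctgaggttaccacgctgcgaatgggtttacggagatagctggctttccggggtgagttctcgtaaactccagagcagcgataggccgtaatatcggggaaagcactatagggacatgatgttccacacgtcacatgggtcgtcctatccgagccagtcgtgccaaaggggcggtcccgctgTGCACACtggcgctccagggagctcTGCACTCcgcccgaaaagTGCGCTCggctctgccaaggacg
Mt2 promoter (chr8:94898882-94899181): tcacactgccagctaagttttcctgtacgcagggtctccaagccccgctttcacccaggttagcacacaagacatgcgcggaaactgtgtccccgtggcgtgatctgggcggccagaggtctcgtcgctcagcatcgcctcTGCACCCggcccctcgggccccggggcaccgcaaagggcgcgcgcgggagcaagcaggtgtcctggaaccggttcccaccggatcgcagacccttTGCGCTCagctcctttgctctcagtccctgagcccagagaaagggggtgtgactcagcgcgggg
A core was present 3 times in the *Mt1* window, 2 times in those of *Mt2* and *Slc30a1*, 1 time in those of *Mt3* and *Mt4*, and was not found in that of *Mtf1*. Among 21770 promoter windows of the same length, 27.4% held at least 1 core, 7.14% at least 2 and 1.98% at least 3.

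More copies lie between these windows and the start codons of *Mt1* and *Mt2*, next to a TATAAA box, where the annotation places untranslated exons of the longer transcripts. The short sites shown here each hold 2 cores, on opposite strands in *Mt1* and on the minus strand in *Mt2*.
Mt1 site (chr8:94905797-94905825): tgctGGGTGCAaacccttTGCGCCCggac
Mt2 site (chr8:94899302-94899331): gcGTGTGCAggcggcgggggcGCGTGCAtg
The *Mt1* site ends 113 bases and the *Mt2* site 144 bases before the start codon. From the start of the promoter window to the start codon, *Mt2* held 7 cores, *Mt1* 5, and *Mt3* and *Slc30a1* 3 each. In windows of 300 bases placed on a TATAAA box within 150 bases of the start codon, *Mt1* and *Mt2* held 5 cores each and *Mt3* held 3. Of 1171 genes with such a box, 0.171% held 5 or more and 0.598% held 3 or more. These genes include *Mt1*, *Mt2* and *Mt3* themselves, so the shares are not independent of them. A match is a stretch of letters and does not show that MTF1 was bound in these tissues.

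Total counts ranged from 76912738 to 88030300 in *Atm*-WT and from 65967130 to 78431478 in *Atm*-KO libraries, and 22423 genes were tested. *Atm* itself was lower in every *Atm*-KO library, with 41.1 to 51.1 CPM (counts scaled to library size by edgeR's TMM factors), than in any *Atm*-WT library, with 59.0 to 80.0 CPM, although its counts are summed over the whole gene and do not show which part of the transcript was affected. Its log2 fold change was −0.66 (SE 0.10) and its edgeR adjusted p was 0.0775. Library 7F, the only label that ends in F, had *Xist*, the RNA of the inactive X chromosome, at 910 CPM, against at most 0.163 CPM in the other 7 libraries, so that *Xist* was not balanced between the genotypes. Markers of granule and Purkinje cells, the defining neurons of the cerebellum, were present in every library. Across all genes the median log2 fold change was −0.02.

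Mean levels of all 5 genes were lower in the *Atm*-KO mice, by the widest margin for *Mt2* and *Mt1* and by less for *Mt3*, *Mtf1* and *Slc30a1*. With the quasi-likelihood test of edgeR, 0 of the 5 members passed an adjusted p of 0.05, and only 0.0178% of all genes tested passed it. At an unadjusted p under 0.05, 4 of the 5 members were lower in *Atm*-KO and 0 were higher. Among all genes tested 20.2% passed that threshold, 8.48% lower and 11.7% higher in *Atm*-KO. The *Atm*-KO libraries were all below the *Atm*-WT libraries for 1 member, *Mt1*, as for 5.12% of all genes, while 6.47% of genes were separated in the other direction. The median log2 fold change of the 5 members was −0.33.

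*Mt1* encodes a metallothionein that astrocytes induce under stress and metal load. Its level was 48.7 CPM in 2M, 34.8 in 7M, 38.7 in 13M and 36.3 in 32M of the *Atm*-WT mice. In the *Atm*-KO mice it was 19.6 CPM in 1M, 29.7 in 7F, 17.9 in 11M and 16.1 in 12M. Every *Atm*-KO mouse was thus below every *Atm*-WT mouse, with 7F the closest to the wild-type range. The means were 39.6 ± 6.23 CPM in *Atm*-WT against 20.8 ± 6.06 CPM in *Atm*-KO (SD, n = 4 each), a ratio of 0.526. The log2 fold change was −0.93 (SE 0.17, 95% interval −1.31 to −0.54), with an edgeR unadjusted p of 0.000214, which ranked 33 of 22423 genes, and an adjusted p of 0.0931. A two-sided exact permutation test of the 8 log2 CPM values gave p = 0.0286, the smallest that 4 against 4 mice allow. The call depended on the procedure. *Mt1* passed an adjusted p of 0.05 with DESeq2 (4.94e-05), with edgeR when no filter on low counts was applied (0.00427) and with edgeR when 7F was left out (0.0243, log2 fold change −1.13), and passed in none of the other 17 alternatives.

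*Mt2* encodes the close paralogue of *Mt1* that is usually induced with it. The *Atm*-WT levels were 70.7 CPM in 2M, 42.9 in 7M, 78.5 in 13M and 52.5 in 32M. The *Atm*-KO levels were 31.3 CPM in 1M, 46.2 in 7F, 19.3 in 11M and 16.4 in 12M. The genotypes overlapped through 7F alone, which was above the lowest *Atm*-WT mouse, 7M. The means were 61.1 ± 16.3 CPM and 28.3 ± 13.6 CPM (SD, n = 4 each), a ratio of 0.463. The log2 fold change was −1.11 (SE 0.29, 95% interval −1.75 to −0.47), with an edgeR unadjusted p of 0.00273 and an adjusted p of 0.105. The exact permutation p was 0.0571. *Mt2* thus had the lower ratio of the pair and the wider spread between mice, and it passed the adjusted threshold only without the filter on low counts (edgeR adjusted p = 0.0208).

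The lncRNA *Gm45774* runs on the opposite strand to *Mt2* and shares 783 exonic bases with it. Wild-type mice had 10.03 ± 2.97 CPM of it and *Atm*-KO mice 4.83 ± 2.03 CPM, a log2 fold change of −1.05 (edgeR adjusted p = 0.115). In each library its count was between 14.4% and 18.9% of the *Mt2* count. Whether featureCounts used strand is not given in the sources used here, so whether reads of *Mt2* contribute to the value of *Gm45774*, or the reverse, is not known, and where the reads of *Gm45774* lie was not tested. How reads that overlap both genes were treated is not given either, and the shared bases are most of the 950 exonic bases of *Mt2*. The level of *Mt2*, its rank and its ratios to *Mt1* and *Mt3* carry this uncertainty. No annotated gene overlaps *Mt1* or *Mt3*.

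*Mt3* encodes the brain-enriched metallothionein. The *Atm*-WT levels were 64.3 CPM in 2M, 61.2 in 7M, 53.7 in 13M and 73.4 in 32M. The *Atm*-KO levels were 49.7 CPM in 1M, 60.0 in 7F, 52.8 in 11M and 38.3 in 12M. The ranges overlapped through 7F, the only *Atm*-KO library above the lowest *Atm*-WT library, 13M. The means were 63.1 ± 8.15 CPM and 50.2 ± 9.03 CPM (SD, n = 4 each), and the log2 fold change was −0.33 (SE 0.13), with an edgeR unadjusted p of 0.0257, an adjusted p of 0.189 and an exact permutation p of 0.0571. The value depended on the libraries at the extremes, 32M and 12M. With a surrogate variable in the model, which separated 32M and 12M from the other libraries, it was −0.08 (edgeR unadjusted p = 0.367), and without 12M it was −0.22 (unadjusted p = 0.0543).

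*Mt4*, a metallothionein of stratified epithelium, had a count of 0 in all 8 libraries. A count of 0 allows up to 3 counts, or 0.0444 CPM in the library with the fewest counts, by counting error alone.

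**Figure D1:**
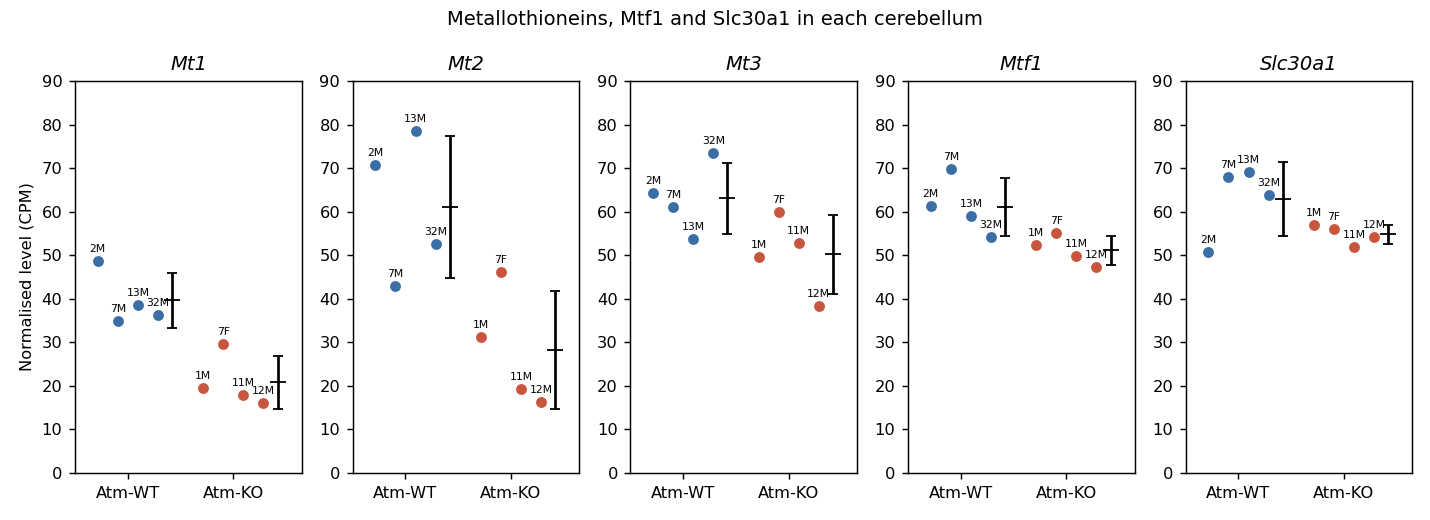
Normalised level in CPM (linear axis from 0) of *Mt1*, *Mt2*, *Mt3*, *Mtf1* and *Slc30a1* in each mouse, with a named point per library and a bar for the mean ± SD of the 4 mice of a genotype. The genotypes do not overlap for *Mt1*, where the highest *Atm*-KO mouse, 7F, was at 29.7 CPM and the lowest *Atm*-WT mouse, 7M, at 34.8 CPM, and they overlap for the other 4 genes.

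The balance among the metallothioneins was compared within each library. *Mt1*, *Mt2* and *Mt3* summed to 164 ± 18.8 CPM in *Atm*-WT against 99.3 ± 27.3 CPM in *Atm*-KO cerebellum (SD, n = 4 each), with ranges of 139 to 184 and 70.8 to 136 CPM. *Mt3* made up 38.9% ± 6.77 of that sum in *Atm*-WT and 51.6% ± 6.21 in *Atm*-KO, and these shares overlapped. The ratio of *Mt3* to *Mt1* was 1.62 ± 0.33 in *Atm*-WT against 2.47 ± 0.38 in *Atm*-KO, with the highest *Atm*-WT value (2.020) just under the lowest *Atm*-KO value (2.024). The ratio of *Mt1* to *Mt2* was 0.671 ± 0.13 and 0.795 ± 0.19, and its ranges overlapped. These ratios are descriptions of the same libraries and were given no test.

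Between mice, *Mt1* and *Mt2* varied together more than any other pair of members. Over the 8 libraries the Pearson correlation of their log2 CPM was 0.946, and after the mean of each genotype had been removed it was 0.872. *Mt1* with *Mt3* gave 0.780 and 0.583, and *Mt1* with *Mtf1* gave 0.779 and 0.378. *Slc30a1* followed *Mt1* least, at 0.384 over all libraries and −0.31 within genotypes. All points of these correlations share libraries, depth and genotype, and they are descriptions without a test.

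Scaled to the length of their annotated exons, the metallothioneins were among the abundant transcripts of the tissue. In *Atm*-WT cerebellum *Mt2* stood at 64.4 CPM per kb, *Mt3* at 45.3, *Mt1* at 31.8, *Slc30a1* at 11.1 and *Mtf1* at 6.71 CPM per kb. In *Atm*-KO cerebellum the order was *Mt3* at 36.0, *Mt2* at 29.8, *Mt1* at 16.7, *Slc30a1* at 9.68 and *Mtf1* at 5.62 CPM per kb. In *Atm*-WT the order of *Mt2* and *Mt3* rests on the annotated exon lengths, since in CPM without length *Mt3* (63.1) was above *Mt2* (61.1), whereas in *Atm*-KO *Mt3* was above *Mt2* on both scales. The standard deviations over 4 mice were 17.2 CPM per kb for *Mt2* and 5.84 for *Mt3* in *Atm*-WT, and 14.3 and 6.47 in *Atm*-KO, and *Mt2* was above *Mt3* in 4 of 4 *Atm*-WT libraries, although the ranges overlapped (45.2 to 82.6 against 38.5 to 52.6 CPM per kb). In *Atm*-KO the gap between their means was smaller than the standard deviation of either gene. Among 15322 protein-coding genes tested, *Mt2* ranked 246, *Mt3* 466 and *Mt1* 814 in *Atm*-WT. The annotated exons of *Mt1* (1246 bases), *Mt2* (950 bases) and *Mt3* (1395 bases) add up those of all annotated transcripts and are longer than any of their coding transcripts, so that levels per kb understate these genes to unequal degrees.

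*Mtf1* encodes the zinc-finger factor that binds the metal response element. The *Atm*-WT levels were 61.2 CPM in 2M, 69.8 in 7M, 59.1 in 13M and 54.1 in 32M, and the *Atm*-KO levels were 52.3 in 1M, 55.1 in 7F, 49.8 in 11M and 47.3 in 12M. Of the 4 *Atm*-KO mice, 3 were below the lowest *Atm*-WT mouse. The means were 61.1 ± 6.55 CPM and 51.1 ± 3.36 CPM (SD, n = 4 each), a ratio of 0.837. The log2 fold change was −0.26 (SE 0.08), with an edgeR unadjusted p of 0.0104, an adjusted p of 0.141 and an exact permutation p of 0.0571. It lay between −0.31 and −0.19 in 20 alternatives, with the unadjusted p under 0.05 in all of them. The protein-coding gene *1110065P20Rik* shares 761 exonic bases with *Mtf1* on the opposite strand, and was at 7.43 CPM in *Atm*-WT against 6.75 CPM in *Atm*-KO.

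*Slc30a1* encodes ZnT1, the exporter that removes zinc from the cytosol. The *Atm*-WT levels were 50.7 CPM in 2M, 67.9 in 7M, 69.1 in 13M and 63.7 in 32M, and the *Atm*-KO levels were 57.0 in 1M, 56.0 in 7F, 52.0 in 11M and 54.3 in 12M. All 4 *Atm*-KO mice lay within the *Atm*-WT range, because 2M had the lowest level of the 8. This same library had the highest level of *Mt1*. The means were 62.9 ± 8.43 CPM and 54.8 ± 2.22 CPM (SD, n = 4 each), and the log2 fold change was −0.20 (SE 0.09, 95% interval −0.40 to 0.0034), with an edgeR unadjusted p of 0.0534, an adjusted p of 0.254 and an exact permutation p of 0.143. As each library was left out, the log2 fold change ranged from −0.29 without 2M (edgeR unadjusted p = 0.00123) to −0.13 without 13M (unadjusted p = 0.197). Its opposite-strand neighbour *1700034H15Rik* shares 468 exonic bases and was at 3.13 CPM in *Atm*-WT against 3.95 CPM in *Atm*-KO.

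**Figure D2:**
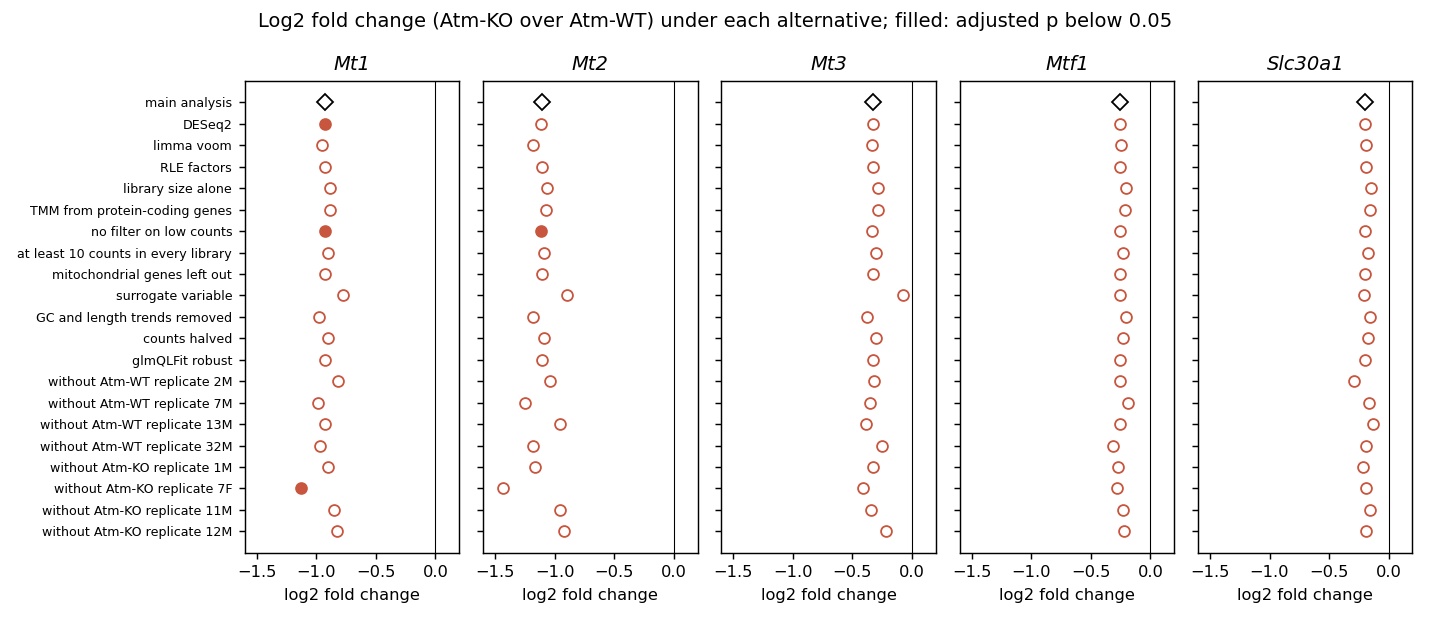
Log2 fold change of each member (*Atm*-KO over *Atm*-WT, horizontal axis) under the main analysis (diamond) and 20 alternatives (circles, a row each), filled where the adjusted p was under 0.05. Every value was below 0, and the filled circles are 3 for *Mt1* and 1 for *Mt2*.

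Other genes that MTF1 is known to regulate, or that have been reported to depend on it, had smaller differences than *Mt1* and *Mt2*. In a list of 10 such genes that includes *Mt1*, *Mt2* and *Slc30a1*, 9 had a negative log2 fold change, 5 had an unadjusted p under 0.05 in edgeR, all lower in *Atm*-KO (8.48% of all genes), 0 had an adjusted p under 0.05, and the median was −0.19, against −0.02 over all genes tested. Of the 7 that are not members, 3 were among those 5, and these are named here after their values were seen. *Ndrg1*, a gene of the hypoxia and stress response, was at 95.2 ± 3.96 and 74.2 ± 13.9 CPM (log2 fold change −0.36, edgeR unadjusted p = 0.0108), without overlap between genotypes. *Csrp1*, which encodes a LIM-domain protein, had −0.22 (unadjusted p = 0.0427) and *Selenow*, which encodes a selenoprotein, −0.19 (unadjusted p = 0.0473), both with overlap. *Slc40a1*, which encodes the iron exporter ferroportin, was at 9.39 ± 1.35 CPM in *Atm*-WT against 10.2 ± 2.03 CPM in *Atm*-KO. *Slc39a10*, a zinc importer that MTF1 represses, was at 115 CPM in both genotypes, with a log2 fold change of −0.0024 (95% interval −0.17 to 0.16).

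The zinc transporters were read by direction of transport. Of 9 genes of the ZnT family tested, grouped here by family as zinc exporters and with *Slc30a1* included, 0 had an unadjusted p under 0.05. Their median log2 fold change was −0.05. The family members at the ends of the range, among genes with at least 1 CPM, were *Slc30a3*, at 1.15 and 1.28 CPM, and *Slc30a10*, at 9.13 and 10.1 CPM, with higher means in *Atm*-KO, and *Slc30a4*, at 119 and 112 CPM, and *Slc30a1* with lower means. Of 14 zinc importers of the ZIP family, 1 had an unadjusted p under 0.05 and was higher, and 2 were lower, with a median of −0.06. Together these are 3 of 14 genes, near the 20.2% of all genes that passed the same threshold.

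*Slc39a2*, which encodes the plasma membrane zinc importer ZIP2, was at 2.93 ± 1.23 CPM in *Atm*-WT against 6.86 ± 1.83 CPM in *Atm*-KO cerebellum (SD, n = 4 each). Its *Atm*-WT libraries lay between 1.30 and 4.29 CPM and its *Atm*-KO libraries between 5.28 and 8.94 CPM, without overlap. The log2 fold change was 1.23 (SE 0.31, 95% interval 0.55 to 1.91), with an edgeR unadjusted p of 0.00205 and an adjusted p of 0.101. *Slc39a12*, an importer expressed in brain, was at 66.2 ± 1.95 and 54.9 ± 6.04 CPM, a log2 fold change of −0.27 (edgeR adjusted p = 0.117), also without overlap. *Slc39a11* (9.56 and 8.46 CPM) and *Slc39a13* (21.1 and 23.1 CPM), which are importers of internal membranes, had unadjusted p values above 0.05.

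Genes of copper handling, the other metal that metallothioneins bind, gave 1 higher and 1 lower gene at an unadjusted p under 0.05 among 15 tested, with a median log2 fold change of −0.10. These 2 of 15 genes are no larger a share than the 20.2% of all genes. *Cox17*, a copper chaperone of cytochrome oxidase, was at 7.21 ± 1.25 CPM in *Atm*-WT against 10.9 ± 3.46 CPM in *Atm*-KO (log2 fold change 0.59, edgeR adjusted p = 0.167). *Cp*, which encodes the copper-containing ferroxidase ceruloplasmin, was at 36.6 ± 4.85 and 29.7 ± 3.55 CPM (log2 fold change −0.30, adjusted p = 0.169). *Cox11* (15.2 and 16.4 CPM), another assembly factor, and *Sod1* (52.4 and 44.2 CPM), the copper and zinc superoxide dismutase, did not pass an unadjusted p of 0.05.

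Iron handling genes had log2 fold changes of both signs. Of 17 tested, 4 had an unadjusted p under 0.05 in edgeR and were higher in *Atm*-KO, against 11.7% of all genes, 8 were lower, against 8.48% of all genes, 0 had an adjusted p under 0.05, and the median log2 fold change was −0.12. The uptake genes *Tfrc*, the transferrin receptor, and *Slc11a2*, the iron importer DMT1, had the most positive values. *Tfrc* was at 109 ± 10.9 CPM in *Atm*-WT against 138 ± 3.61 CPM in *Atm*-KO (log2 fold change 0.34, edgeR adjusted p = 0.0931), and *Slc11a2* was at 36.4 ± 2.22 and 44.1 ± 1.66 CPM (0.28, adjusted p = 0.0962), both without overlap between genotypes. The storage gene *Fth1*, which encodes ferritin heavy chain, was at 368 ± 94.1 and 224 ± 56.8 CPM (−0.72, adjusted p = 0.116), with overlapping ranges. Its light-chain partner *Ftl1*, named here after its values were seen, was at 75.2 ± 7.45 and 59.5 ± 2.47 CPM (−0.34, adjusted p = 0.0938), without overlap. *Trf*, which encodes transferrin, the ligand of the receptor, was also named after its values were seen. It was lower, at 603.3 ± 33.6 and 487.5 ± 63.4 CPM (−0.31, edgeR adjusted p = 0.128), without overlap. *Steap3*, an endosomal ferrireductase, was at 2.35 and 1.54 CPM (−0.62).

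**Figure D3:**
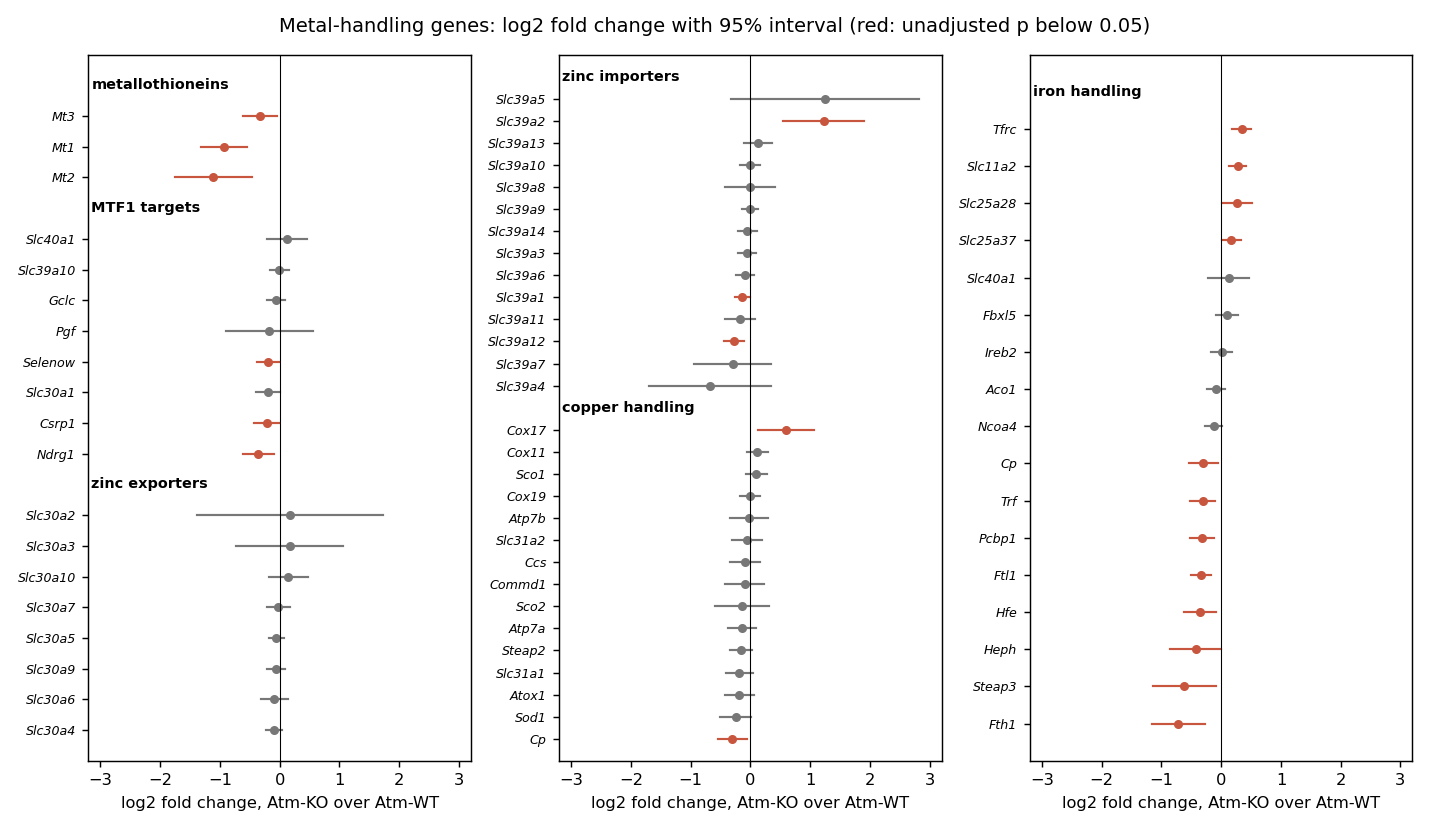
Log2 fold change (*Atm*-KO over *Atm*-WT, horizontal axis) of the metallothioneins, MTF1 targets, zinc exporters and importers, copper genes and iron genes that were tested, as points with bars for the 95% interval. Red marks an unadjusted edgeR p under 0.05, and a gene on several lists is drawn on the first list of its panel. *Mt2* at −1.11 and *Mt1* at −0.93 are the most negative red points, *Slc39a2* at 1.23 is the most positive, and the iron genes hold red points on both sides of 0.

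Genes that respond to the other known inducers of *Mt1* and *Mt2* were read in the same way. Of 15 glucocorticoid-responsive genes, 15 had a negative log2 fold change, with a median of −0.61. The genotypes did not overlap for 6 of them, all lower in *Atm*-KO, against 5.12% of all genes. At an unadjusted p under 0.05, 11 of the 15 were lower in *Atm*-KO, against 8.48% of all genes. None of the 15 had an adjusted p under 0.05 in edgeR (lowest adjusted p 0.0931). *Fkbp5*, a co-chaperone of the glucocorticoid receptor, was at 30.03 ± 20.3 and 12.1 ± 3.68 CPM (log2 fold change −1.32), and *Zbtb16*, a transcription factor induced by glucocorticoids, was at 66.7 ± 50.6 and 27.7 ± 17.2 CPM (−1.27), with wide spreads among *Atm*-WT mice. *Klf9*, another induced transcription factor, was at 380 ± 43.3 and 314 ± 12.7 CPM (−0.27), and the receptor gene *Nr3c1* at 232 ± 16.2 and 230 ± 9.86 CPM (−0.01, 95% interval −0.16 to 0.13). In the library 7F, which had the highest *Mt1* and *Mt2* of the *Atm*-KO mice, the median of this list relative to the *Atm*-WT mean was −0.35, against −0.82 to −0.54 in the other 3 *Atm*-KO libraries. The *Atm*-WT libraries lay between −0.29 (32M) and 0.46 (13M) for this list. In 13M, *Mt1* was at −0.02 and *Mt2* at 0.40 on the same scale. In 2M, where the list was at −0.03, *Mt1* was at 0.31 and *Mt2* at 0.25. The place of 7F was not particular to the glucocorticoid list, since 7F was also the *Atm*-KO library nearest to the *Atm*-WT mean for heat shock genes (−0.24, against −0.54 to −0.40), astrocyte markers (−0.07, against −0.26 to −0.12) and RNAs kept in the nucleus (0.52, against 0.63 to 1.05). For heat shock genes the genotypes overlapped, with *Atm*-WT libraries between −0.41 (13M) and 0.36 (7M). For other lists 7F was not the nearest, as 11M was nearer than 7F for acute-phase genes (−0.12 against −0.20) and oligodendrocyte markers (−0.01 against −0.11), and 7F was the farthest for copper genes (−0.10).

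Of 12 acute-phase and reactive-glia genes, 4 had an unadjusted p under 0.05, all lower in *Atm*-KO, and the median log2 fold change was −0.39. *Cebpd*, an inflammatory transcription factor, was at 3.40 ± 1.40 and 1.24 ± 0.59 CPM (−1.45, edgeR adjusted p = 0.107), *Osmr*, the oncostatin M receptor, at 8.10 ± 2.23 and 5.50 ± 0.82 CPM (−0.56), while *Stat3* (57.2 and 53.6 CPM) and *Cd44* (17.8 and 17.5 CPM) had unadjusted p values above 0.05. Of 10 heat shock genes, 6 had an unadjusted p under 0.05, all lower, with a median of −0.45. The share of all genes lower at that threshold was 8.48%, for these lists and those that follow. The inducible *Hspa1a* (9.98 ± 10.7 and 4.67 ± 0.60 CPM) and *Hspa1b* (11.2 ± 14.3 and 4.17 ± 0.96 CPM) did not pass it, and their *Atm*-WT means were set by 7M, the *Atm*-WT library with the lowest *Mt1* and *Mt2*. The mitochondrial chaperone *Hspd1* was at 145 and 123 CPM and the co-chaperone *Dnaja1* at 159 and 141 CPM. Of 10 targets of NRF2, the factor of the oxidative stress response, 1 passed, *Gsr*, which encodes glutathione reductase, at 35.3 ± 2.40 and 31.4 ± 1.33 CPM, and the list had a median of −0.09. *Hmox1* (2.60 and 2.34 CPM), *Gclm* (145 and 142 CPM) and *Slc7a11* (78.0 and 79.4 CPM) did not pass.

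Markers of the glial cells that express metallothioneins were also lower on average in *Atm*-KO libraries. Of 12 markers of astrocytes and Bergmann glia, the astrocytes of the Purkinje cell layer, 12 had a negative log2 fold change, 5 with an unadjusted p under 0.05, and the median was −0.16. Their summed level ranged from 6456 to 7445 CPM in *Atm*-WT against 5912 to 6637 CPM in *Atm*-KO, and none was at 0. On a scale chosen after seeing the data, log2 CPM minus the mean log2 CPM of these 12 markers in the same library, the difference between genotype means (*Atm*-KO minus *Atm*-WT) was −0.77 for *Mt1*, with 4 of 4 *Atm*-KO libraries below the lowest *Atm*-WT library, and −1.01 for *Mt2*, with 3 of 4 below it. The same difference was −0.15 for *Mt3*, −0.07 for *Mtf1* and −0.0028 for *Slc30a1*. On this scale the SDs in *Atm*-WT and *Atm*-KO were 0.24 and 0.33 for *Mt1*, and 0.42 and 0.63 for *Mt2*. The share of all genes without overlap on this scale was not determined, so the counts of libraries have no background beside them. In bulk tissue, fewer cells of a type and less RNA per cell cannot be told apart.

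The other marker lists are given by the count of markers with an unadjusted p under 0.05, to be read against 8.48% of all genes lower and 11.7% higher, and by their summed level, and none of their markers was at 0 in every library. The summed level of 7 oligodendrocyte markers was 3276 to 4304 CPM in *Atm*-WT against 1981 to 3384 CPM in *Atm*-KO, with 3 lower. That of 7 microglial markers was 83.0 to 117 and 65.4 to 86.3 CPM, with 4 lower. By the same criterion 4 of 9 endothelial markers were lower (269 to 290 and 211 to 270 CPM), as were 4 of 7 mural markers (200 to 246 and 154 to 202 CPM), 2 of 6 choroid plexus markers (770 to 1540 and 418 to 1200 CPM), 1 of 5 meningeal fibroblast markers (83.3 to 110 and 73.2 to 98.3 CPM) and 1 of 6 Purkinje cell markers (7869 to 9759 and 7749 to 9323 CPM). Of 8 granule cell markers 1 was higher (4458 to 5228 and 4543 to 5712 CPM), and of 5 red blood cell markers none passed (5.87 to 42.9 and 7.80 to 49.5 CPM). Of 8 RNAs kept in the nucleus 7 were higher in *Atm*-KO, with a median log2 fold change of 0.72. Among them *Neat1*, the RNA of paraspeckles, rose from 52.4 ± 5.45 to 85.1 ± 8.04 CPM (log2 fold change 0.70, edgeR adjusted p = 0.0371). *Mirg* was at 28.4 and 55.8 CPM, *Meg3* at 554 and 963 and *Rian* at 396 and 497 CPM. *Miat* did not pass, at 15.6 ± 1.34 and 22.3 ± 13.4 CPM with overlap (edgeR unadjusted p = 0.258). The part of cell composition and of nuclear RNA content in the levels of the metallothioneins was not tested.

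**Figure D4:**
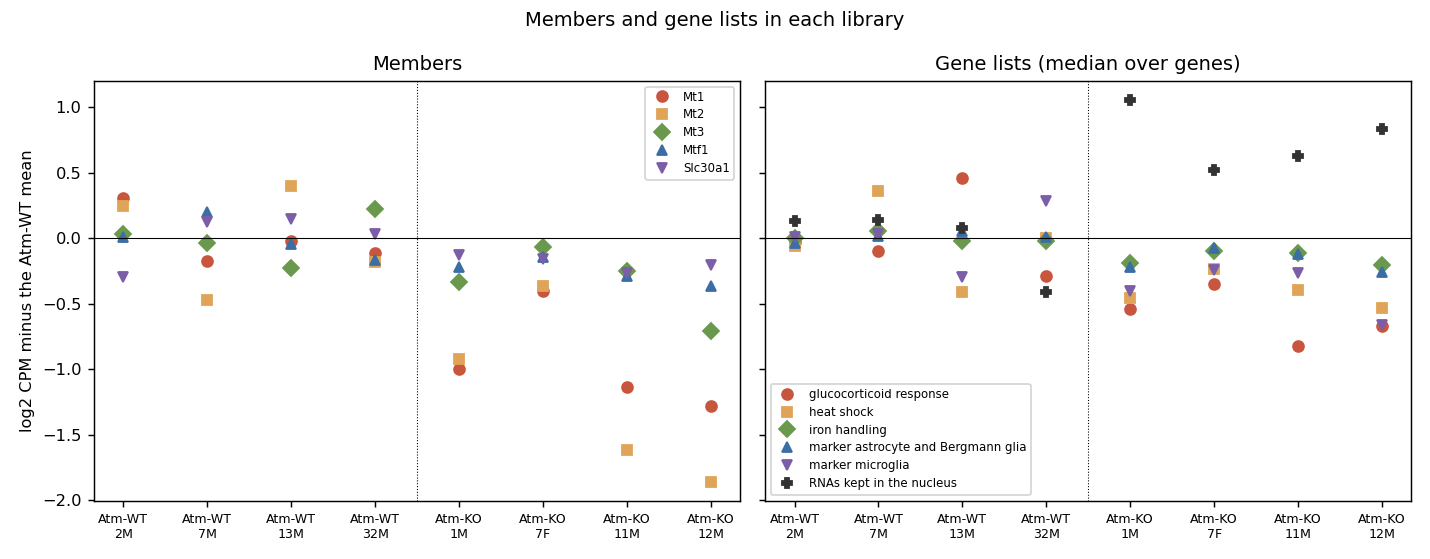
Log2 CPM minus the mean of the *Atm*-WT libraries (vertical axis) in each of the 8 libraries, for the 5 members (left) and as the median over the genes of 6 lists without the members (right). *Mt1* and *Mt2* were near −0.40 in 7F and at or below −0.92 in the other *Atm*-KO libraries. The glucocorticoid list was between −0.82 and −0.35 in *Atm*-KO and between −0.29 and 0.46 in *Atm*-WT. RNAs kept in the nucleus were between 0.52 and 1.05 in *Atm*-KO.

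The genes most like each member over the 8 libraries, among 13280 protein-coding genes with a mean of at least 1 CPM, were found by the Pearson correlation of log2 CPM. For *Mt1* they were *Ezh2*, *Jade2* and *Tubb4a*, with correlations of 0.989, 0.988 and 0.984. For *Mt2* they were *Kyat3*, *Ripk4* and *Adipor2* (0.986, 0.983 and 0.979), and for *Mt3* they were *Rpl11*, *Nrsn2* and *Pcsk1n* (0.990, 0.989 and 0.984). *Mtf1* was most like *Eif4ebp2*, *Cacng5* and *Fosl2* (0.976, 0.971 and 0.967), and *Slc30a1* most like *Copb1*, *Zbtb33* and *Arhgap5* (0.980, 0.974 and 0.953). No member was among the 3 genes most like another member. The differences of these genes between genotypes were smaller than that of *Mt1*, at −0.22 for *Ezh2* and −0.33 for *Tubb4a* on the log2 scale, since a correlation does not weigh the size of a change. With 8 libraries and this many genes, correlations of this height are picked from the extreme of a long list and are given as a description.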

How the data were processed

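Per the labels, total RNA of frozen cerebellum was made into libraries by Novogene, and the submitters' processing notes name FastQC 0.11.9, STAR, featureCounts and DESeq2 with GRCm39 and GENCODE Release 28. The authors deposited raw counts per gene without normalization. The strand and pair settings of featureCounts are not given in the sources used here, and between 67.3% and 73.3% of counts from 1 to 50 were even in each library, so a count may be a read or a mate of a pair. Halved counts were therefore among the alternatives.

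Identifiers were matched to GENCODE M39 on GRCm39, which held 98.8% of them. With R 4.3.3 and edgeR 4.0.16, genes were kept by filterByExpr (22423 of 56691), normalized by TMM and compared between genotypes with glmQLFit and glmQLFTest without covariates, with Benjamini-Hochberg adjustment across all tested genes. CPM used TMM factors, and log2 CPM a prior count of 2. For single genes two-sided exact permutation tests of log2 CPM were used. At the lowest total, 65967130 counts, every member still had at least 1090 counts, and counting error was small beside the spread between mice. P-values measure the spread between these mice.

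Alternatives were DESeq2 1.42.0, limma voom (limma 3.58.1), RLE factors, library size alone, TMM from protein-coding genes, no filter, mitochondrial genes left out, a minimum of 10 counts per library, 1 surrogate variable (sva 3.50.0), GC and length trends removed, robust glmQLFit, and each library left out. The scripts were tested on simulated data. The level relative to astrocyte markers and the count over all genes under each alternative were chosen after seeing the data. Members and gene lists were chosen with earlier results of these data known. Genes named beside the members were those of each list with an adjusted p under 0.05 and, at a mean of at least 1 CPM, the 2 most positive and 2 most negative log2 fold changes, and for each member the 3 most correlated genes. Promoter windows were read from GRCm39.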

Additional observations from a re-analysis of the deposited data

Results flagged for a closer look

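In each genotype the levels of the members, their sums and ratios, *Atm* and the genes named from the lists were searched for a mouse that stood apart from the other 3 by Dixon's criterion. In 98 groups of 4 mice 3 were found, against 4.9 expected by chance, and none concerned a member. *Hspa1a* and *Hspa1b*, the inducible HSP70 genes, stood apart in *Atm*-WT 7M, where they reached 26.0 and 32.6 CPM. The 3 remaining *Atm*-WT mice had 3.80 to 5.91 CPM of *Hspa1a* and 2.55 to 6.24 CPM of *Hspa1b*. *Osmr* stood apart in *Atm*-KO 12M, at 4.28 CPM against 5.82 to 6.07.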

How the results depend on the processing

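All 5 members kept a negative log2 fold change in each of 20 alternatives. The number of members with an adjusted p under 0.05 was 0 in the main analysis, 1 with DESeq2, 2 without a filter on low counts and 0 to 1 when a library was left out. *Mt1* passed with DESeq2 (−0.93), without the filter (−0.93) and without *Atm*-KO 7F, and its values ranged from −1.13 to −0.81 as each library was left out. *Mt2* passed without the filter (−1.11). Over all genes, 4 passed in the main analysis, 1552 with DESeq2, 591 without the filter, 6 without *Atm*-KO 7F and 27 without *Atm*-WT 13M, where no member passed, and the cause was not tested. The unadjusted p of *Mt3* was over 0.05 in 5 alternatives, and that of *Slc30a1* under 0.05 in 3. No paired analysis was possible because the labels' numbers do not link mice across genotypes and only the number 7 occurs in both. The comparison rests on 4 mice a genotype, *Xist* was high in 1 *Atm*-KO library alone, and the strand and pair settings of the counting are not known. The strand setting bears on *Mt2*, *Mtf1* and *Slc30a1*, which each share exonic bases with an opposite-strand neighbour.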
